A study of Mus musculus with 13 samples.

Results

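Plasmacytoid dendritic cells (pDC) made up 628 of the 95563 cell barcodes with at least 1500 unique molecular identifiers (UMIs, counted transcripts) in 13 droplet libraries of mouse liver. The members were chosen by UMIs of single barcodes. A barcode was taken as a pDC when it held at least 3 UMIs of Siglech, at least 1 UMI of Ccr9, Cox6a2, Klk1 and Atp2a1 together, and no UMI of Cd209a, Xcr1, Clec9a or Cd3e. The levels of these genes are therefore a description of the choice. All livers came from male C57BL/6J mice of 6 to 12 weeks. Control mice (D0) were compared with mice fed chow that carried 0.1% of the porphyrinogenic agent 3,5-diethoxycarbonyl-1,4-dihydrocollidine, called DDC, which injures the bile ducts, for 3, 5, 9, 19 or 25 days, and with a recovery group (STOP) that had 7 days without DDC after 18 days on it. The D19 protocol B library carries day 18 in its group label and STOP carries day 19, where the treatment text gives 18, and the labels do not tie mice to libraries. Each day was sampled by 2 isolation protocols, A and B, and STOP by protocol B. Protocol A sorted living singlets and, beside the retinoid-autofluorescent cells, those positive for Epcam, Pdpn, Lyve-1 or Cd45, and Cd31+ Lyve-1- cells, whereas protocol B sorted living cells of the stellate cell preparation, Cd45+ Itgax+ Cd64-, Epcam+ and Cd3e+ Lyve-1- cells. The dendritic cells of protocol B were thus taken on surface Itgax (CD11c), which pDC carry at a low level.

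pDC are round, antibody-secreting-cell-like dendritic cells that develop under the E protein Tcf4 (E2-2) with Spib, Runx2 and Bcl11a. They read viral nucleic acids in endosomes through Tlr7 and Tlr9, signal through Irf7 and can release large amounts of type I interferon. Siglech, Bst2, Ly6d and Ccr9 are their common mouse markers, and Cox6a2, Klk1, Dntt and rearranged immunoglobulin transcripts are further genes that mark this lineage in mice. In liver they circulate through the sinusoids and are a minority beside the conventional dendritic cells (cDC).

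The libraries held 29307190 to 108602421 UMIs. Members numbered 4 in D0 A, 284 in D0 B, 2 in D3 A, 17 in D3 B, 7 in D5 A, 89 in D5 B, 15 in D9 A, 52 in D9 B, 0 in D19 A, 86 in D19 B, 3 in D25 A, 37 in D25 B and 32 in STOP. Per-library levels are given for D0 B, D5 B, D9 B, D19 B, D25 B and STOP, which had at least 20 members each, as CPM, the members' summed UMIs of a gene scaled to a library sum of 1000000. No member barcode was shared between libraries, and any pair of libraries shared at most 49 of its cell barcodes. The library labelled D0 B stood apart by genes that were low in it: of 3103 genes at 50 CPM or more in the members, 42.2% lay below all 4 protocol B DDC libraries that had at least 20 members, whereas each DDC library lay below the other 4 for 12.1 to 15.8% of genes. In cDC1-gate cells 51.2% of genes lay below in D0 B, against 7.36 to 15.02% in the DDC libraries. The share above did not set it apart, at 27.4% in its members, 26.9% in those of D9 B, and 24.2% in its cDC1 gate against 32.5% in that of D19 B. Its members had a median of 3713 UMIs, against 5793 to 8084.5 in the 4 DDC libraries, and 1.31% of their UMIs were mitochondrial, against 2.52 to 4.82%. The descriptions of the D0 libraries carry a date and those of the DDC libraries do not, so day 0 and any difference in handling cannot be told apart. The labels do not say that libraries of a stage came from separate animals, so p-values measure only the spread between these libraries.

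Of 2729 barcodes with at least 3 Siglech UMIs, 628 were members, 70 lacked the further pDC genes, 1611 carried them together with a UMI of Cd209a, Xcr1, Clec9a or Cd3e, and 420 failed both demands. The excluded 1611 had a median of 7139 UMIs, against 5166.5 in the 588 members with 4 or more Siglech UMIs. These medians pool libraries of unequal depth, and depth within a library was not compared. D0 B, with a member median of 3713 UMIs, gave 284 of the 628 members and 421 of the 1611. Of the barcodes with at least 3 Siglech UMIs, the rule kept 39.4% in D0 B and 12.3 to 23.1% in the protocol B DDC libraries. At the threshold, the 40 members with exactly 3 Siglech UMIs had 4926 CPM of Ly6d and 1074 CPM of Tcf4 in sum, the 30 barcodes with 2 Siglech UMIs that met the other conditions had 7082 and 922 CPM, and the 588 members with 4 or more had 3836 and 2069 CPM. The stretches just upstream of the transcription starts of 3 genes of the rule are shown because each holds the hexamer CAGGTG or its reverse complement CACCTG, the letters of an E-box that E proteins such as Tcf4 can bind. The 250 bases are read from RefSeq on GRCm38.p6 along the gene's strand (plus for all 3), and the capitals mark the hexamer.
Siglech, chr7:55767934-55768183: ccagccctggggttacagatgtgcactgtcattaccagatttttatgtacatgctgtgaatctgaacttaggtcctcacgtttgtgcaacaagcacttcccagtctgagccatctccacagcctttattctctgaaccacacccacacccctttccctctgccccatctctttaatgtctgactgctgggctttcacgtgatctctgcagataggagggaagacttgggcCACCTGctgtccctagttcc
Ccr9, chr9:123766961-123767210: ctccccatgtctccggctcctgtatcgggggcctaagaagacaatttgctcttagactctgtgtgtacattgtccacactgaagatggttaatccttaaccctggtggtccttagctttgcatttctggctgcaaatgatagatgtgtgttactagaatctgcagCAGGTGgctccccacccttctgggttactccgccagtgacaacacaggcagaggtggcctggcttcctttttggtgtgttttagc
Klk1, chr7:44225110-44225359: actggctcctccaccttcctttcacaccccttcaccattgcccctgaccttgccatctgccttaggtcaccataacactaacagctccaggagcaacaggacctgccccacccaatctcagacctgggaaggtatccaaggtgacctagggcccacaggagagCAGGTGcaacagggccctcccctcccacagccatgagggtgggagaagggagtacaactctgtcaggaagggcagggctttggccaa
The hexamer began 20 bases before the start in Siglech, 85 in Ccr9 and 87 in Klk1. Searched on both strands over 300 bases (250 before to 50 after the start), it was present in 3 of the 4 rule genes with a window and in 22.6% of all 27025 genes with one. Of the 35 pDC identity genes outside the rule, 24 had a window and 20.8% of these held it. Of the 25 genes that stood furthest above the cDC gates, 22 lie outside the rule, and 5 of their 16 windows (31.2%) held it, as did 0 of 7 of the cDC1 marker list. It was present before the start of Bst2 and Cd300c and in no window of Atp2a1, Spib, Runx2, Pacsin1, Dntt or Irf7. These matches are letters in a window and were not measured as binding.

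The members carried pDC transcripts beyond the genes used to choose them. Bst2, an interferon-inducible tetherin that pDC hold at all times, had 5566 CPM in D0 B, 4780 in D5 B, 4635 in D9 B, 4738 in D19 B, 4907 in D25 B and 4469 in STOP. It averaged 287 CPM in cells gated on Xcr1 or Clec9a (type 1 cDC, 4101 barcodes) and 318 CPM in cells gated on Cd209a, a gene of type 2 cDC and monocyte-derived cells (3122 barcodes), of the same 6 libraries, and every member sum lay above every value of these gates. After each barcode was thinned to 1500 UMIs, 99.1% of the 580 members had a Bst2 UMI (exact 95% interval 98.0 to 99.7%, and 99.8% unthinned). The shares were 32.8% of 3097 cDC1-gate, 30.4% of 2447 Cd209a-gate and 17% of 8410 T-gate cells. How much of the T-gate share came from free RNA or from the T cells' own expression was not tested. That gate set no limit on Siglech, and 1.01% of its cells held a Siglech UMI unthinned. Ly6d, a surface protein of early lymphoid cells and pDC, had 5958, 3546, 2384, 2592, 3629 and 3113 CPM in the same order, with the highest value in D0 B. A Ly6d UMI was seen in 90.0% of thinned members (96.4% unthinned) and in 1.61% of cDC1-gate, 1.51% of Cd209a-gate and 1.78% of T-gate cells. Tcf4 had 1051, 1770, 3021, 2972, 2198 and 2374 CPM, lowest in D0 B, and was seen in 87.1% of thinned members (97.2% unthinned) but also in 12.4% of cDC1-gate and 19.7% of Cd209a-gate cells (44.7 and 55.3% unthinned) and 3.71% of T-gate cells.

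**Figure D1:**
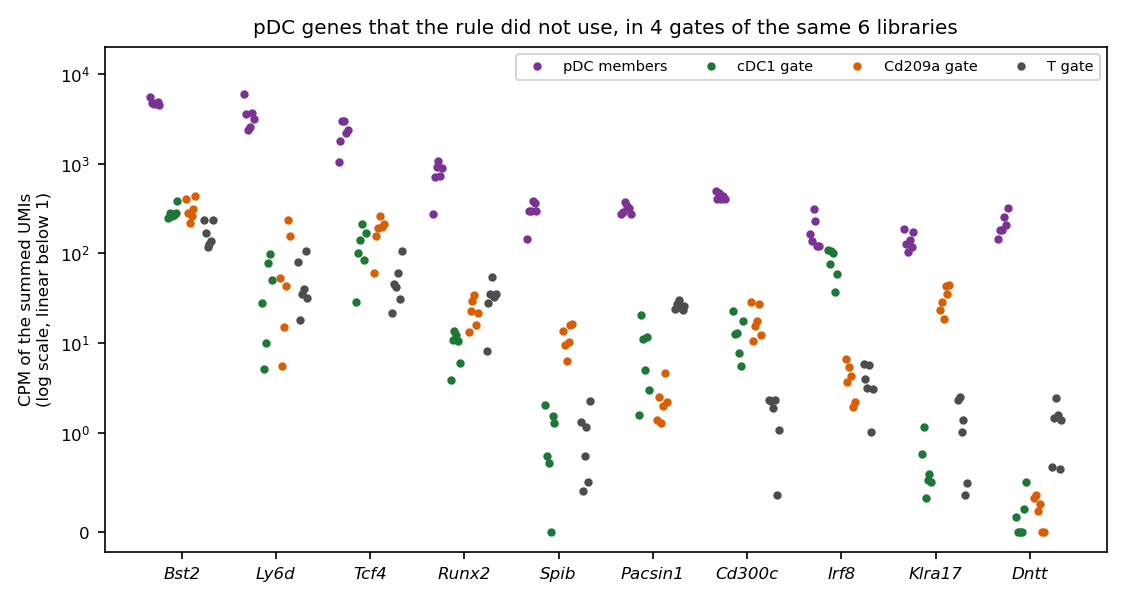
Level per library in CPM (symmetric log axis, linear below 1) of 10 pDC genes that the rule did not use. Points from left to right within a colour are D0 B, D5 B, D9 B, D19 B, D25 B and STOP; purple is the pDC members, green the cDC1 gate, orange the Cd209a gate and grey the T gate. For all 10 genes the lowest member level lies above the highest level of the other gates, by the least for Irf8 (121 against 108 CPM in the cDC1 gate).

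The genes of the rule, given as a description, moved differently between libraries. Siglech, a sialic acid-binding receptor, had 1879, 2956, 4978, 4353, 2965 and 2649 CPM in D0 B, D5 B, D9 B, D19 B, D25 B and STOP, with its lowest level in D0 B. Cox6a2, a subunit of cytochrome c oxidase otherwise found in muscle, had 2494, 1090, 766, 542, 519 and 1240 CPM, with its highest level there. Klk1, a tissue kallikrein, had 2251, 809, 828.8, 971, 1484 and 828 CPM, and Atp2a1, a calcium pump of muscle, 155, 66.2, 48.6, 19.3, 15.3 and 42.2 CPM. Ccr9, the receptor of the gut and thymus chemokine Ccl25, was low throughout, at 26.4 to 86.4 CPM.

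The list of 35 pDC identity genes was described by its levels, since every gene of a gated cell counts as used in the choice. Of the 35, 31 averaged at least 10 CPM in the members, and all 31 were at least 2-fold above both cDC gates, which that filter favours. The cDC gates took no barcode with a Siglech UMI, which favours such ratios as well. Over all 7595 genes at 10 CPM, 1033 were, and 644 were at least 2-fold below the higher cDC gate. The remaining 4 (Smim5, Ptprcap, Hsd11b1 and D13Ertd608e) averaged 0.610 to 5.91 CPM. The median log2 ratio to the higher cDC gate was 3.93 for the list and 0.18 for all genes. Among the list, Plac8 ranged over 2503 to 4137 CPM, Ctsl, a lysosomal protease, over 1473 to 3881, and Pld4, an endosomal exonuclease that trims nucleic acids, over 700 to 1126. Klra17, Cd300c and Lair1, which are surface receptors, had 105 to 188, 401 to 495 and 570 to 1057 CPM. Klk1 and Klk1b27 are near-identical kallikreins, and Cd209d is close to the gated Cd209a, so their reads can be shared.

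The gene that stood furthest above the cDC gates outside the rule was Olfr164, an odorant receptor gene, at 41.8, 80.9, 122, 290, 141 and 232 CPM in D0 B, D5 B, D9 B, D19 B, D25 B and STOP, against at most 0.313 CPM in any library of either cDC gate. Its lowest level was that of D0 B. Lrp8, a receptor of the low density lipoprotein receptor family, had 124, 268, 294, 368, 603 and 264 CPM, and at most 6.61 CPM in the cDC gates. Cd8b1, the beta chain of the CD8 co-receptor, averaged 262 CPM in members, 2.41 in the cDC1 gate, 1.88 in the Cd209a gate and 399 in the T gate. Mctp2, Sla2, Cmah and Prkca were among the same 25 genes with the highest ratio.

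Of the 23 genes of the lymphoid list, 13 averaged at least 10 CPM and 11 of these were at least 2-fold above both cDC gates. Dntt, the terminal transferase that adds bases during antigen receptor rearrangement, had 144, 180, 182, 253, 206 and 322 CPM and averaged 0.15 and 0.204 CPM in the cDC1 and Cd209a gates. It was seen in 20.3% of thinned members (50% unthinned) and 0.131% of T-gate cells. Ighm, the heavy chain of IgM, varied little between libraries, from 931 to 1023 CPM, and averaged 130 and 122 CPM in the cDC gates. Blnk, an adaptor of B cell receptor signalling, had 248 to 346 CPM. The B and plasma cell marker list (10 genes without Ighm and Blnk) summed to 5.51 to 212 CPM in the members, highest in D0 B.

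The transcription factor list separated into genes above and below the cDC gates. Of 24 factors, 21 averaged at least 10 CPM, 9 were at least 2-fold above both cDC gates (Tcf4, Spib, Runx2, Irf8, Bcl11a, Ikzf1, Ikzf3, Tcf12 and Ets1) and 5 at least 2-fold below the higher one (Id2, Id3, Klf4, Relb and Spi1). Runx2 had 273, 719, 919, 1082, 721 and 892 CPM and Spib, an Ets factor, 145, 298, 299, 382, 363 and 295 CPM. Both were lowest in D0 B. Id2, an inhibitor of E proteins, had 26.4 to 211 CPM in the members and averaged 1282 CPM in the cDC1 gate. Irf8, a factor shared by pDC and cDC1, had 164, 136, 311, 232, 122 and 121 CPM, and the cDC1 gate averaged 81.3 CPM.

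The receptors and adaptors of nucleic acid sensing were present, while type I interferon transcripts were hardly seen. Of 36 sensing genes, 23 averaged at least 10 CPM and 5 were at least 2-fold above both cDC gates (Tlr7, Irf7, Pld4, Slc15a4 and Ptprs). Tlr7, the endosomal receptor for single-stranded RNA, had 141, 107, 192, 142, 76.3 and 95 CPM and averaged 4.21 and 3.41 CPM in the cDC gates. Unc93b1, which carries these receptors to endosomes, had 585 to 904 CPM. Of 14 Ifna genes, 0 UMIs were seen among the 3467357 UMIs of all members, which allows up to 3 UMIs or 0.865 CPM for counting error. Ifnb1 had 7 UMIs in 4 members, all of D0 B. Ifng had 36 UMIs in 12 members of D0 B, D19 B, D25 B and STOP. Members with at least 10 UMIs of the NK cell marker list were found in these same libraries only (4, 3, 3 and 2). Whether those members held the Ifng UMIs was not tested. Ifnar1 and Ifnar2, the receptor chains for type I interferon, had 164 to 386 and 116 to 286 CPM and averaged at most 111 CPM in the 3 other gates. Il12a, a chain of interleukin 12 and 35, had 65.5, 23.9, 102, 148, 64.9 and 68.6 CPM, against at most 2.01 CPM in any library of the cDC gates.

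Genes of antigen presentation were lower than in cDC. Of 34 genes, 26 averaged at least 10 CPM, 3 were at least 2-fold above both cDC gates (Cd47, Cd200 and Lag3) and 15 at least 2-fold below the higher gate, with a median log2 ratio of -1.14. H2-Aa, a chain of MHC class II, had 4061, 2096, 1351, 1910, 2667 and 2971 CPM and averaged 10019 and 13083 CPM in the cDC1 and Cd209a gates. Cd86, a costimulatory ligand, had 5.28 to 20.2 CPM against averages of 177 and 133 CPM. Cd74, the invariant chain, had 20655 CPM in D0 B and 2785 to 7414 CPM in the other 5 libraries.

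Secretory genes were spread around the cDC levels. Of 37 genes, 35 averaged at least 10 CPM, 7 were at least 2-fold above both cDC gates and 1 (Sdf2l1) at least 2-fold below. Xbp1, the transcription factor of the unfolded protein response, had 313 to 406 CPM against averages of 103 and 95.6 CPM, and Sec11c, a subunit of the signal peptidase, had 493.4 to 928 CPM against 322 and 265 CPM. Among chemokines and homing genes, Ccl4, an inflammatory chemokine, had 7521, 2757, 4222, 5353, 6666 and 4443 CPM. The cDC gates averaged 745 and 1097 CPM of Ccl4.

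Interferon-stimulated genes lay near the cDC levels. Of 63 genes, 34 averaged at least 10 CPM, 6 were at least 2-fold above both cDC gates (Bst2, Irf7, Ifi44, Stat2, Slfn8 and Socs1) and 6 at least 2-fold below the higher one, with a median log2 ratio of -0.27. Of 29 cytokine and effector genes, 18 averaged at least 10 CPM, 3 were above (Il12a, Grn and Ctsb) and 6 below. Of 21 genes of heme, iron and oxidative stress, 17 averaged at least 10 CPM, 2 were above (Blvrb and Tfrc) and 5 below. All 31 immediate early and heat shock genes averaged at least 10 CPM, and 0 were above and 18 below.

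Few members showed cell cycle transcripts. At 1500 UMIs per cell, 3 of 580 members had at least 2 UMIs of 16 cycle genes, which is 0.517% (exact 95% interval 0.107 to 1.5%). The shares were 9.62% (8.61 to 10.7%) in the cDC1 gate, 5.44% (4.57 to 6.41%) in the Cd209a gate and 3.08% (2.72 to 3.47%) in the T gate. Without thinning the shares were 2.76, 25.2, 17.6 and 8.43%. The intervals cover counting error over cells of 6 libraries and not the spread between libraries.

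**Figure D2:**
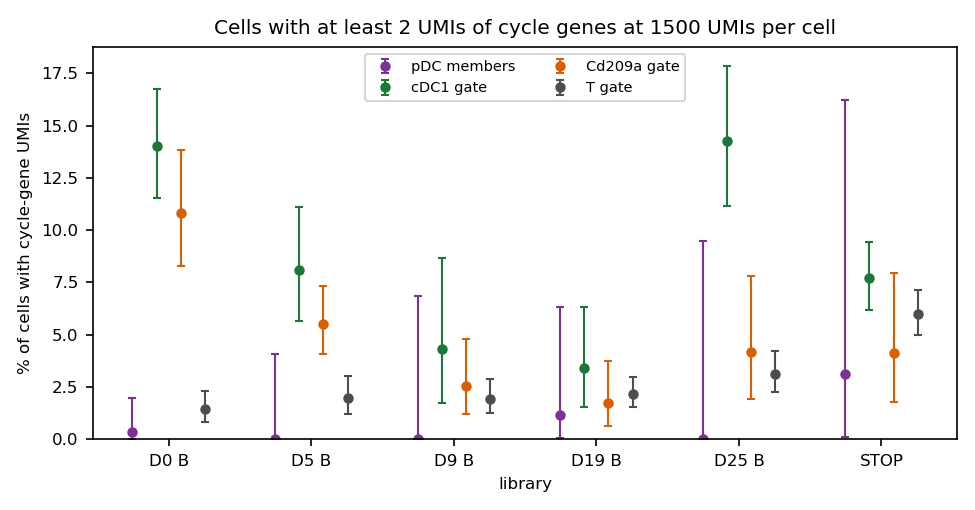
Share of cells with at least 2 UMIs of 16 cycle genes after thinning each cell to 1500 UMIs (y axis, percent), by protocol B library (x axis) and gate (colours). Error bars are exact 95% binomial intervals. The pDC members have 0 or 1 such cell in each library and lie at 0 to 3.13%, and the interval of STOP with 32 members reaches 16.2%.

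Some members also carried the transcripts of other cells. At least 10 UMIs of a marker list of a cell that is not a dendritic cell were found in 67 of the 628 members, of which 31 had been called doublets, and they are named mixed barcodes below. The list met most often was that of sinusoidal endothelium, in 25 of the 67, and its 10 genes summed to 34.3 to 1039 CPM over the 6 libraries. The sums were 75.5 to 6006 CPM for 10 cholangiocyte genes, 38.9 to 3150 CPM for 10 stellate cell genes and 53.5 to 694 CPM for 10 NK cell genes over the 6 libraries. They were 214 to 1138 CPM for 10 monocyte genes, of which 9 had a UMI, and 7.29 to 709.8 CPM for 10 neutrophil genes, of which 8 had one. The defining neutrophil genes Mmp8 and Ngp, the monocyte gene Vcan and the stellate cell gene Lrat were at 0. Single barcodes held most of some genes: 163 of the 171 Gzma UMIs of D19 B and 99 of the 101 of D25 B, 1097 of the 1111 Spp1 UMIs of D25 B, and 226 of the 228 Dcn UMIs of STOP.

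The change of the members' transcripts per day of DDC was fitted over D0 B, D5 B, D9 B, D19 B and D25 B (edgeR, 6414 genes tested). Each day had a single library in this fit. Its p-values and SEs therefore measure the scatter of libraries around a straight line in day, not the spread between libraries of the same day. It was called at an adjusted p under 0.05 for 0.296% of genes, which were 2 higher (Gzma and the predicted gene Gm7986, 0.0312% of genes) and 17 lower (0.265%). One of the 17, Atp2a1, was used by the rule, which leaves 16 lower. Cyba, the p22phox subunit of the phagocyte oxidase, had 898, 243, 187, 52.8 and 45.8 CPM in these libraries and fell by 0.19 log2 units per day (SE 0.0238, edgeR adjusted p = 0.0175). Psmb8, a catalytic subunit of the immunoproteasome, had 768, 283, 277, 132 and 68.7 CPM and fell by 0.14 per day (SE 0.0197, edgeR adjusted p = 0.0175). Both stood lower in each later library than in the one before. Napsa, an aspartic protease of endosomes, had 408, 99.3, 114, 22.9 and 26.7 CPM and fell by 0.18 per day (SE 0.0266, edgeR adjusted p = 0.0175).

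Further genes that fell were Iglc3, an immunoglobulin light chain constant gene (0.28 per day on the log2 scale, from 151 CPM in D0 B to 0 in D25 B, with reads that Iglc2 can share), Cd72, a B cell inhibitory receptor, Gpx4, the phospholipid peroxidase, Hmox2, the constitutive heme oxygenase, and the respiratory chain genes Ndufs5 and Ndufa13. Of the identity list, 31 genes were tested, 0 were called higher and 2 lower (Iglc3 and Upb1), with a median of -0.00262 per day against 0.00122 over all genes. The transcription factors (20 tested), sensing genes (23), interferon-stimulated genes (29), secretory genes (35) and chemokine and adhesion genes (21) held 0 calls each, by edgeR, against 19 of 6414 over all genes. Of 26 antigen presentation genes, Psmb8 was called.

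The same genes were lower over the diet in the other gates. Of the 17 genes called lower, 14 were tested in each of the cDC1, Cd209a and T gates, and 14 of 14 had a negative slope in each, with medians of -0.14, -0.15 and -0.14 per day, against -0.18 in the members over all 17 and -0.181 without Atp2a1. Of the 14, 8 were called in the T gate and 0 in either cDC gate (edgeR; 0.501% of all genes were called in the T gate, 0.258% lower and 0.242% higher, 0% in the cDC1 gate and 0.00935% in the Cd209a gate). Cyba went from 650 CPM in D0 B to 49.4 in D25 B in the cDC1 gate, from 806 to 60.2 in the Cd209a gate and from 487 to 33.2 in the T gate. Tested directly, the slope of Cyba did not pass between members and the cDC1 gate (edgeR, adjusted p = 0.794), nor that of Psmb8 (edgeR, adjusted p = 0.988). Dnajc7, a co-chaperone, was the least alike of the 14. It had 503, 211, 279.5, 82.7 and 53.4 CPM in the members and fell by 0.14 per day, against slopes of -0.05, -0.05 and -0.04 in the cDC1, Cd209a and T gates. The differences of -0.09 per day from either cDC gate did not pass (edgeR, adjusted p = 0.0765 for the cDC1 gate and 0.118 for the Cd209a gate, unadjusted p = 0.000118 and 9.32e-05). A factor common to all cells of a library was not tested.

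**Figure D3:**
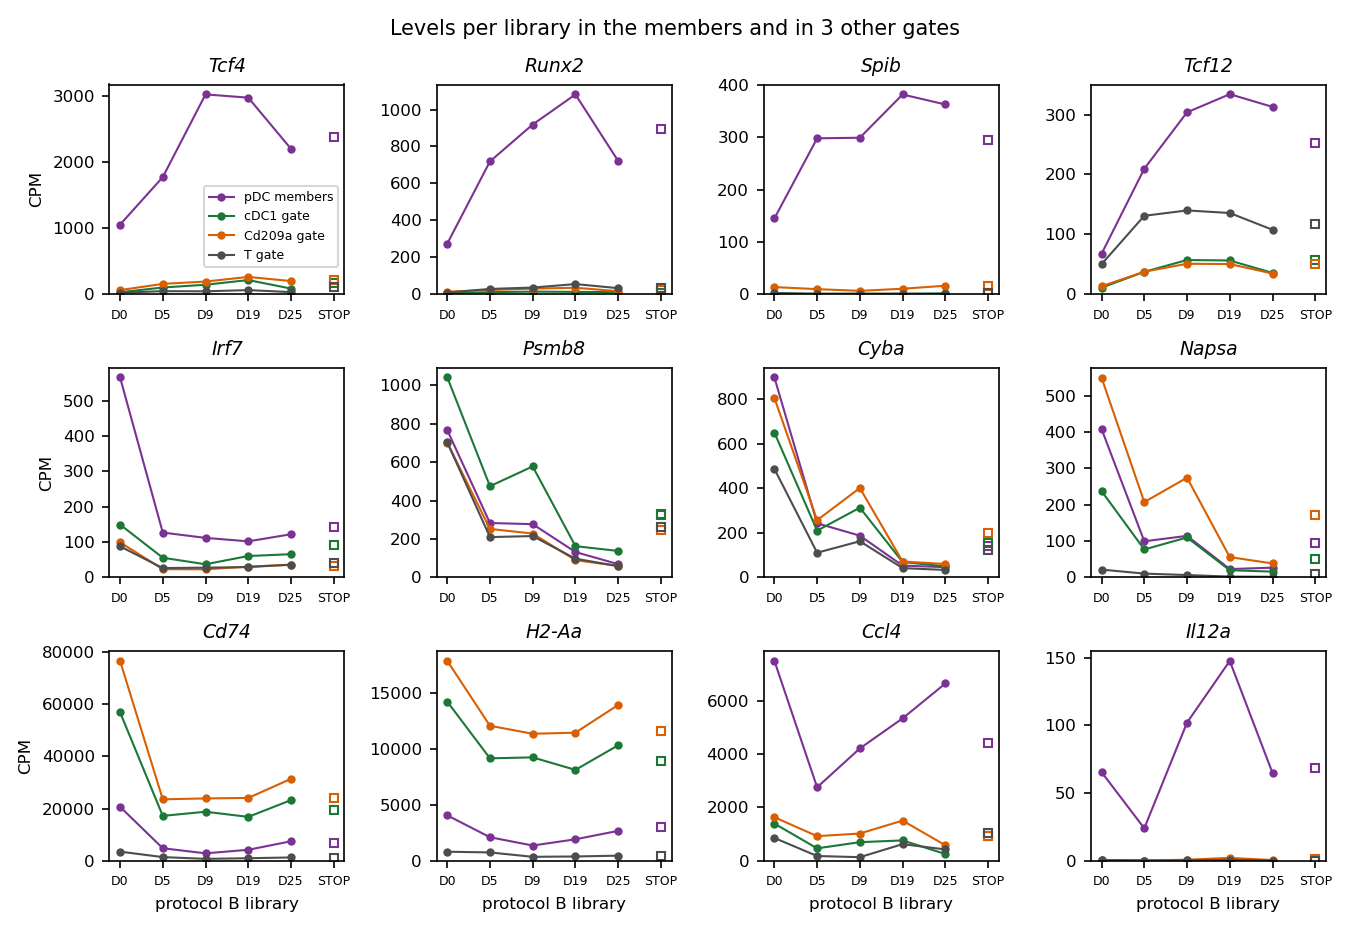
Level in CPM (y axis) of 12 genes in the 6 protocol B libraries (x axis, days of DDC and STOP), for pDC members, cDC1 gate, Cd209a gate and T gate. Lines join the libraries of the diet series and open squares are STOP; there is 1 library per day and no error bar. Cyba and Psmb8 decline in all 4 gates, while Tcf4, Runx2 and Spib have their lowest pDC level in D0.

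The calls leaned on D0 B and D19 B, while of the single genes followed over the settings only Gzma turned in direction. Without D0 B, 8 genes were called (3 higher and 5 lower), of which 3 were among the 19, and without D19 B 0 were called (edgeR, 255 at an unadjusted p under 0.05). Without D0 B and the mixed barcodes, 19 were called (0.366%; 8 higher and 11 lower), of which 8 were among the first 19, Cyba, Psmb8, Napsa and Dnajc7 included. Without D5 B 40 and without D25 B 39 were called. With log2(day + 1) as the term, which weighs the step from D0 B to D5 B more, 122 genes were called (1.9%), 1.61% of genes lower and 0.296% higher, and 120 when Atp2a1 and Cox6a2 of the rule are left out. Irf7 then fell by 0.59 per unit (SE 0.0861, edgeR adjusted p = 0.00459). It had 567 CPM in D0 B and 102 to 127 CPM in the 4 DDC libraries, a ratio of D0 B to the DDC mean of 4.90, and the same ratio was 2.74, 3.55 and 2.95 in the cDC1, Cd209a and T gates. On this scale Isg15, Socs1, Tnf and H2-Oa also fell. Of 30 immediate early and heat shock genes tested, 0 rose and 3 fell, Hspa1a by 1.13, Dnajb1 by 0.45 and Jun by 0.42. The mitochondrial share moved with this step, with D0 B below the 4 DDC libraries in the members and also in the cDC1 gate (0.614% against 1.60 to 2.54%), and its part in these calls was not tested. Tcf12, the E protein HEB, rose by 0.44 (SE 0.0905, edgeR adjusted p = 0.0266) from 67.3 CPM in D0 B to 210, 304, 334 and 313 CPM. Lrp8 and Olfr164 rose by 0.37 and 0.47. Tcf12 was also lowest in D0 B in the 3 other gates. Igf1r, the insulin-like growth factor 1 receptor, had 25.5, 69.9, 131, 141 and 118 CPM and Satb1, a chromatin organiser, 45.5, 127, 165, 267 and 176 CPM, and both rose on this scale (edgeR adjusted p = 0.0371 and 0.0344), with D0 B below all 4 DDC libraries. Tnf had 186 CPM in D0 B and 4.86 to 46.0 CPM in the 4 DDC libraries. Its ratio of D0 B to the DDC mean was 8.96 in members and 2.31, 2.25 and 1.56 in the cDC1, Cd209a and T gates. That of Isg15, a ubiquitin-like interferon-stimulated protein, was 6.57 in members and 2.65, 3.81 and 4.26 in those gates. These ratios set 1 library against 4 and the differences between gates were not tested on this scale.

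Of the 2 genes called higher per day on the first scale, Gm7986 rose by 0.19 (edgeR adjusted p = 0.0243) and Gzma, a granule protease of NK and T cells, by 0.15. Gzma is 1 of the 10 genes of the NK cell list that helped to define mixed barcodes, so that barcodes rich in Gzma are left out by construction. It had 29.1, 58.8, 29.2, 301 and 385 CPM in all members (SE of the slope 0.0248, edgeR adjusted p = 0.0251) and 0, 66.1, 31.8, 13 and 4.83 CPM without them, where the slope was -0.0519. Without mixed barcodes 63 genes were called of 5702 (1.1%; 2 higher and 61 lower, of which Atp2a1 and Cox6a2 belong to the rule), and these held 18 of the 19. Isg15, Tnf, Cd83 and H2-Oa were among the 61, and the slopes of Cyba (-0.19) and Psmb8 (-0.14) stayed as they were. The genes next in order of p for a rise were Mir142hg, Ttr, Serpinb9 and Gimap4, which did not pass.

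The stages onset (days 3 and 5) and progression (days 9 to 25) were compared at a minimum of 10 members per library, since at 20 members onset kept 1 library. This left D3 B and D5 B for onset and D9 A, D9 B, D19 B and D25 B for progression. D0 B was the seventh library of the fit and was part of neither stage, and protocol was a term, which takes up D9 A as the single library of protocol A. In edgeR, 0.0708% of 7063 genes were called, which were 5 genes lower in progression and 0 higher. All 5 are macrophage or monocyte genes. C1qa, a subunit of complement C1q, had 314 CPM in D3 B and 186 in D5 B, against 162 in D9 A, 14.6 in D9 B, 24.6 in D19 B and 11.4 in D25 B, so that D9 A lay beside the onset libraries, and fell by 3.84 log2 units (SE 0.373, edgeR adjusted p = 0.000427). In protocol B alone the fall was 3.85, and without the protocol term, where D9 A counts, it was 3.00 (edgeR adjusted p = 0.334) and 0 of the genes were called. Lyz2, Tgfbi, Clec7a and C1qb fell with it, by 3.72, 4.84, 3.6 and 2.78. The macrophage marker sum moved with them, at 711 CPM in D3 B, 588 in D5 B and 797 in D9 A, against 64.9 to 172 CPM in D9 B, D19 B and D25 B.

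These calls were lost when the mixed barcodes were left out, a step that lowers C1qa, C1qb and Lyz2 by construction, since they are on the macrophage and monocyte lists. C1qa then had 17.8 CPM (3 UMIs) in D3 B and 9.11 (4 UMIs) in D5 B, against 17.9 (1 UMI) in D9 A, 5.78 in D9 B, 15.1 in D19 B and 9.65 in D25 B. Tgfbi, which is on no list, had 0 UMIs in D3 B and D5 B, against 61 and 28 with them. In this fit 1 gene was called (0.0156%), Hspa1a, a heat shock gene (-5.22). With called doublets removed 0 were called (edgeR, 438 at an unadjusted p under 0.05). In D5 B, 1 barcode held 73 of the 101 C1qa UMIs. Without D3 B 2 genes were called, without D9 B 13 and without D25 B 9. The lowest p-values for a rise were those of Nr4a1, an immediate early nuclear receptor (log2 difference 1.85, SE 0.366, edgeR adjusted p = 0.144), and Il12a (2.12, SE 0.437, edgeR adjusted p = 0.160), neither of which passed.

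**Figure D4:**
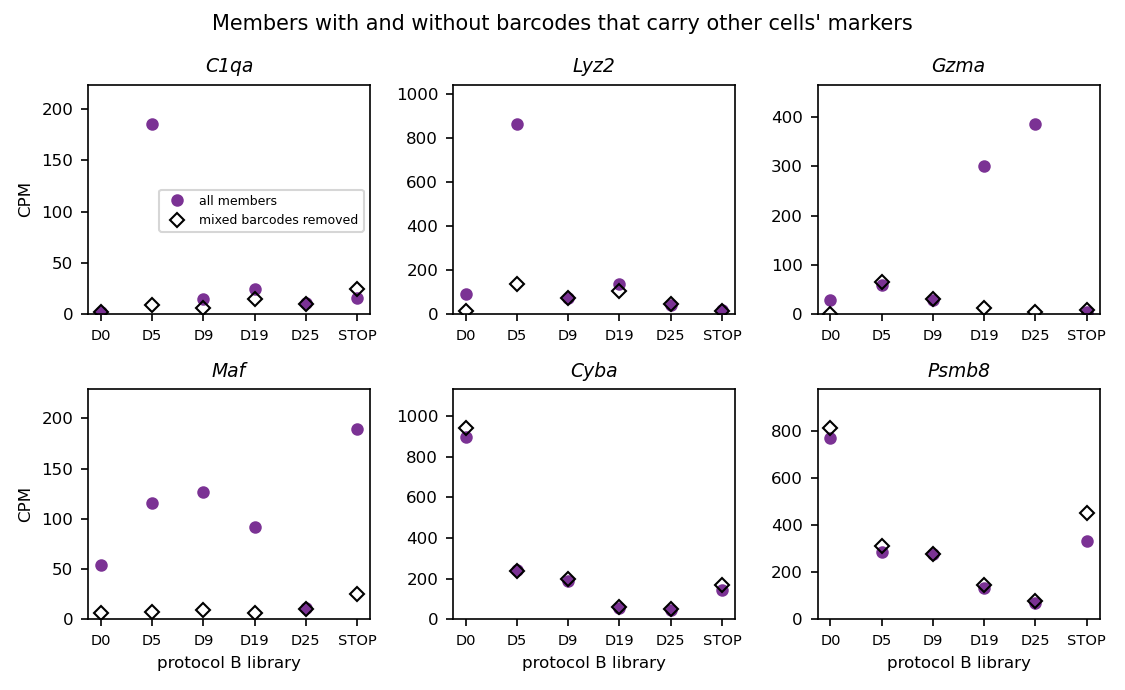
Level in CPM (y axis) of 6 genes in the protocol B libraries (x axis), in all pDC members (filled) and without the mixed barcodes (open). C1qa, Lyz2, Gzma and Maf lose their high values when the mixed barcodes are left out, while Cyba and Psmb8 keep theirs; C1qa, Lyz2 and Gzma are on the marker lists by which barcodes were left out.

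The stage difference of the members was then tested against that of the cDC gates in the same libraries. Against cDC1-gate cells, 29 of 9436 genes (0.307%) differed, 3 higher (0.0318%) and 26 lower (0.276%) in members. Nr4a1 (1.61), Lrp8 (1.99) and Tent5c (1.64, a non-canonical polyadenylating enzyme) had the more positive difference in members. Nr4a1 had 68.7 and 86.4 CPM in the members of D3 B and D5 B and 243, 209, 292 and 439 CPM in those of D9 A, D9 B, D19 B and D25 B, and 185 CPM in D0 B. Its stage difference within the members alone did not pass (edgeR adjusted p = 0.144). Lrp8 was at 0.699 to 5.77 CPM in the cDC1 gate of the 6 libraries. These 3 and Ly6d were also called without mixed barcodes, where 17 genes differed (0.183%) and 8 were shared. All 3 lost the call by DESeq2 (8 genes, all lower), without D19 B (15 genes, all lower) and with called doublets removed, where 4 genes were called (Ctsl, Cxcl1, Ly6d and Wfdc18). Nr4a1 also lost it without D3 B, D5 B or D25 B, Lrp8 without D5 B and Tent5c without D3 B. Over all 14 alternative settings Nr4a1 lost it in 8, Lrp8 in 6 and Tent5c in 5. At 3000 UMIs per barcode 23 genes were called, all of them among the 29. The count was 46 without D9 A, 44 without D9 B and 53 without D25 B. Among the called genes whose mean log2 CPM reached 5, the largest negative differences were those of Wfdc18, Tgfbi, C1qa and the chemokine gene Cxcl1, of which Wfdc18 and Cxcl1 turned to 3.62 and 4.85 without D5 B and Tgfbi to 5.90 without mixed barcodes. Below that level, Fcgr1 (-8.84), Ankrd1 (-4.60), Itgb5 (-4.53) and Cx3cr1 (-3.33) were called as well. Ly6d was also lower (-4.49), with 3601 and 3546 CPM in D3 B and D5 B and 1433 to 3629 CPM in the progression members, while the cDC1 gate went from 5.19 CPM in D5 B to 97.5 in D25 B. Against Cd209a-gate cells 3 of 8640 genes (0.0347%) differed, C1qa (-3.76), C1qb (-3.29) and the low Bglap3 (-11.2), all lower. C1qa and C1qb lost the call without mixed barcodes and with called doublets removed, where Bglap3 was still called, and both also lost it without D3 B or D5 B. The count was 1 without D5 B, 5 without D3 B, 17 without D9 A, 9 without D9 B and 37 without D25 B. With the wider gate, which allowed a few UMIs of the excluded genes, 0 genes differed in either test (edgeR, 527 and 509 at an unadjusted p under 0.05). Over days of diet, 2 of 9096 genes (0.022%; 0.011% in each direction) differed between members and the cDC1 gate, Iglc2 (0.78 per day) and Maf (-0.14 per day), and 2 of 8826 (0.0227%) between members and the Cd209a gate, Gzma (0.18 per day) and Iglc2 (0.78 per day). Iglc2 had 221, 93.8, 58.3, 144 and 298 CPM in the members and went from 27.7 CPM to at most 0.192 in the cDC1 gate. The B and plasma cell marker sum moved with this, from 140.5 CPM in D0 B to 3.98 to 4.20 CPM in the 4 DDC libraries in the cDC1 gate and from 245 to 5.47 to 15.5 CPM in the Cd209a gate, and its part in the difference was not tested. Without D0 B neither Iglc2 nor Maf passed against the cDC1 gate, and Iglc2 did not against the Cd209a gate. Against the cDC1 gate 1 other gene differed without D0 B, 38 without D5 B, 15 without D9 B, 15 without D19 B and 7 without D25 B, and against the Cd209a gate 10 without D5 B, 5 without D19 B and 19 without D25 B. Maf and Gzma lost the call without mixed barcodes and with called doublets removed, while Iglc2 was called in both but not by DESeq2 against the cDC1 gate. Without mixed barcodes these counts were 56 (0.647%) and 13 (0.153%), and 16 (0.188%) for the stage against the Cd209a gate.

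Recovery was set against D19 B as 1 library each, so there is no replicate check and the exact 95% Poisson intervals cover counting error only. In the members without mixed barcodes, 977 genes reached 200 CPM in either library, of which 234 had separate intervals, and 4.3% lay past 2-fold higher and 4.5% past 2-fold lower in STOP. Cd8b1 had 510 CPM in STOP and 112 in D19 B, and H2-Q7, a non-classical class I gene, 920 and 238 CPM. Ly6a had 878 CPM in STOP, 264 in D19 B and 1049 in D0 B, and Psmb8 451, 143 and 811 CPM. For these genes STOP lay above D19 B also in the cDC1 gate (H2-Q7 182 against 59.9 CPM, Psmb8 325 against 163 CPM). Dnajc7, a co-chaperone, had 259 CPM in STOP, 71.3 in D19 B and 536 in D0 B, while the cDC1 gate had 61.3 and 66.0 CPM in STOP and D19 B. Predicted, mitochondrial, ribosomal and rule genes aside, the largest falls were those of CT010467.1 (2759 CPM in STOP, 21563 in D19 B), Rnaset2b (50.2 and 316) and Lars2 (66.9 and 337). These were lower in STOP in the cDC1, Cd209a and T gates too, CT010467.1 with 4253 against 22842 CPM in the cDC1 gate. A factor common to all cells of a library was not tested. Tfrc, the transferrin receptor, had 100 CPM in STOP, 331 in D19 B and 58.0 in D0 B. Its level was lower in STOP than in D19 B also in the cDC1 (15.3 against 24.4 CPM), Cd209a (39.0 against 46.3 CPM) and T gates (26.3 against 55.8 CPM). Cacna1e, a calcium channel subunit, had 75.2, 227 and 36.2 CPM, and Cxcr4, a homing receptor, 83.6, 248.6 and 32.1 CPM. In STOP and D19 B, Cxcr4 had 122.5 and 220.6 CPM in the T gate, 95.2 and 117.8 CPM in the Cd209a gate and 99.1 and 81.7 CPM in the cDC1 gate.

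With mixed barcodes kept, 987 genes were compared and 30.7% had separate intervals, 7.29% past 2-fold higher and 4.76% past 2-fold lower. The genes with the largest ratios were then those of other cells, Dcn, Col14a1, Col3a1, Krt19 and Colec11 higher in STOP and Gzma, S100a8 and S100a9 lower. The mixed barcodes held 36.9% of the members' UMIs in STOP and 18.6% in D19 B. Without them, Bcl11a had 301 CPM in STOP and 501 in D19 B, with separate intervals. Those of Tcf4 (2750 and 3188 CPM), Irf8 (134 and 246 CPM), Runx2 (1003 and 1091 CPM) and Spib (343 and 396 CPM) overlapped. With mixed barcodes kept, the intervals of Tcf4 (2374 and 2972 CPM) and Irf8 (121 and 232 CPM) were separate as well.

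The share of pDC among the gated dendritic cells was lower under DDC than in D0 by this rule, though not after adjustment over both share comparisons. The share was 5.97% in D0 A and 18.8% in D0 B. Under DDC it was 0.570% in D3 A, 1.09% in D5 A, 5.70% in D9 A, 0 of 87 cells in D19 A (which allows up to 3.45%) and 3.95% in D25 A. In protocol B it was 7.11% in D3, 6.64% in D5, 9.19% in D9, 12.3% in D19 and 5.29% in D25, and 2.45% in STOP. The DDC libraries averaged 5.18% ± 3.93 (SD, n = 10) and the D0 libraries 12.4% ± 9.05 (SD, n = 2), a difference of -7.19 percentage points (exact permutation test within protocols, two-sided, p = 0.0278, the smallest its 36 arrangements can give, and 0.0556 adjusted over 2 share comparisons). D0 lay above every DDC library in each protocol, but all 4 members of D0 A were mixed barcodes. Without these D0 A held 0 members. Within a protocol the smallest p is 0.167, and the differences were -3.71 in protocol A and -10.7 in protocol B. With D0 A left out the difference was -13.6 (exact permutation p = 0.167), with D0 B left out it was -0.787 (exact permutation p = 0.833), and with the wider gate it was -3.61 (exact permutation p = 0.528). By the wider gate the share of D0 B lay below those of D3 B, D9 B and D19 B. It had 365 such barcodes beside 721 cDC1-gate and 508 Cd209a-gate cells, where D9 B had 245 beside 163 and 351. With each barcode thinned to 1500 UMIs and gates of 1 UMI it was -3.77 (exact permutation p = 0.361), and without mixed barcodes -4.18 (exact permutation p = 0.167). The share of Siglech barcodes that the rule kept was also highest in D0 B among the protocol B libraries, and its part in the difference was not tested.

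Progression libraries averaged 6.07% ± 4.26 (SD, n = 6) and onset libraries 3.85% ± 3.50 (SD, n = 4), a difference of 2.22 points that did not pass (exact permutation test, two-sided, p = 0.19; 2.39 in protocol A with p = 0.4 and 2.05 in protocol B with p = 0.6). The sort on Itgax and the share of other dendritic cells both enter these shares.

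**Figure D5:**
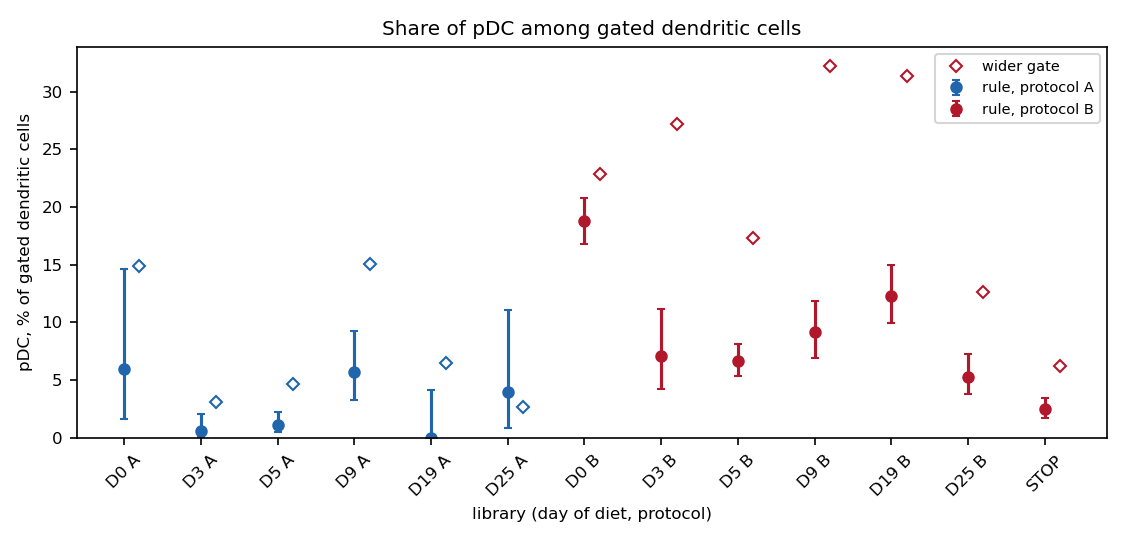
Share of pDC among gated dendritic cells (y axis, percent: pDC, cDC1-gate and Cd209a-gate cells together) in each library (x axis), protocol A in blue and protocol B in red. Filled points carry exact 95% binomial intervals for counting error, and open diamonds are the wider gate. D0 is the highest of its protocol by the rule (5.97% and 18.8%), but not by the wider gate, where D9 lies highest. The 4 pDC of D0 A are all mixed barcodes.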

How the data were processed

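Droplet RNA sequencing of liver cells was available for 13 libraries. The values deposited are unnormalised UMI counts, a gene by barcode matrix for each library, quantified with kallisto on GRCm38 per the submitters' processing notes; kallisto's version and the annotation are not given in the sources used here. Barcodes with at least 1500 UMIs were kept, members were taken by the rule, and UMIs were summed per library. The members and all gene lists were chosen with earlier results of these data known. Levels are CPM (summed UMIs scaled to 1000000). Sums were tested with edgeR 4.0.16 (quasi-likelihood, TMM, filterByExpr, protocol as a term, Benjamini-Hochberg at 0.05) in R 4.3.3, with DESeq2 1.42.0 as an alternative, and tested on simulated data. In the tests of members against the cDC gates, library was a block in place of the protocol term. The change per day used libraries with at least 20 members, which are all of protocol B. Onset then kept 1 library, so stages were compared at 10 members, an alternative listed in the design, and steady state was not tested against stages. The cDC1 gate needed at least 3 UMIs of Xcr1 and Clec9a together, the Cd209a gate at least 3 of Cd209a and the T gate at least 2 of Cd3e. Both cDC gates allowed no UMI of Siglech, of Cd3e or of the other cDC gate's genes. The T gate allowed none of Xcr1, Clec9a or Cd209a. Shares were compared by exact permutation within protocols (scipy 1.17.1). Doublets were called per library by Scrublet in scanpy 1.11.5 (19 to 1744) and kept, with their removal as an alternative. The removal of mixed barcodes, the day interactions and a wider gate (Siglech at least 5 UMIs, marker genes at least 2, excluded genes in sum times 4 below Siglech) were chosen after seeing the data. Named genes were the 10 largest called changes in each direction among genes whose mean log2 CPM reached 5, or the 5 of lowest p where fewer than 5 were called, without predicted, mitochondrial, ribosomal and rule genes, plus the highest or called genes of each list, the 25 with the highest ratio to the cDC gates, and for recovery the 10 largest ratios in each direction with separate intervals. For recovery, not all of the genes with the 10 largest ratios are named. Other genes were named after their values were seen. Intervals cover counting error only.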

Additional observations from a re-analysis of the deposited data

Results flagged for a closer look

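Among the 4 progression libraries with at least 10 members, 35 genes were looked at for a library far from the others, and 6 had one. Most of the 35 were named from tests on these same libraries, so the flags cannot be set against a chance rate. In the members of D9 A, which is the one of protocol A among them and has 15 members, Bst2 was lowest at 2577 CPM, and C1qa (162 CPM), Cd72 (127 CPM), Clec7a (80.9 CPM) and Tgfbi (34.7 CPM) were highest. Of these 15 members 4 were mixed barcodes, and their sinusoidal endothelium sum was 1884 CPM, against 34.3 to 1039 CPM in the 6 libraries with at least 20 members; its part in these values was not tested. Ttr, a transthyretin transcript of hepatocytes, was highest in D25 B at 209.9 CPM.

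Stage differences (progression against onset, log2) differed between pDC and cDC1-gate cells by the interaction test for 29 genes. The named ones, whose mean log2 CPM reached 5, were Nr4a1 (1.61), Lrp8 (1.99), Tent5c (1.64), Wfdc18 (-4.99), Tgfbi (-4.87), C1qa (-4.82), Cxcl1 (-4.71), Ly6d (-4.49), Pf4 (-4.39), C1qb (-3.96), Lyz2 (-3.79), Clec7a (-3.60) and Trem2 (-3.54). Against Cd209a-gate cells they were C1qa (-3.76) and C1qb (-3.29), and below that level Bglap3 (-11.2). Per day of diet, Iglc2 (0.78) and Maf (-0.14) differed from the cDC1 gate, and Gzma (0.18) and Iglc2 (0.78) from the Cd209a gate. Without mixed barcodes Maf had 6.21 to 25.1 CPM in the members of the 6 libraries, against 11.4 to 190 CPM with them.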

How the results depend on the processing

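Days and stages were not paired because the labels give the libraries no replicate numbers. The tests of members against the cDC gates were paired by library. Onset and progression against steady state were not tested, since the design asked for at least 2 libraries of each stage and steady state kept 1, and are given as levels only. For the change per day (19 genes called), DESeq2 called 40, no filter on low counts 168, the stricter gate (Siglech at least 5, marker genes at least 2) 30, doublets removed 32, log2(day + 1) 122, the DDC libraries alone 8 (2 with at least 10 members, 0 with the wider gate, 19 without mixed barcodes), and mixed barcodes removed 63; leaving out 1 library gave 0 to 40. For progression against onset (5), no filter called 51, the stricter gate 9, doublets removed 0, no protocol term 0, the wider gate 0 (0 in protocol B alone, 8 without mixed barcodes), mixed barcodes removed 1, and leaving out 1 library 2 to 13. Stage against the cDC1 gate (29) went to 8 by DESeq2, 60 with no filter, 69 with the stricter gate, 4 with doublets removed, 17 with mixed barcodes removed and 0 with the wider gate (15 to 53 without 1 library). Stage against the Cd209a gate (3) went to 5, 58 and 56 by DESeq2, no filter and the stricter gate, 6 at 3000 UMIs, 16 with mixed barcodes removed and 0 with the wider gate (1 to 37). Days against the cDC1 gate (2) went to 20 by DESeq2, 1 in DDC libraries alone, 56 with mixed barcodes removed and 0 with the wider gate (1 to 38), and against the Cd209a gate (2) to 5, 13 and 0 by DESeq2, mixed barcodes removed and the wider gate (2 to 19). The share under DDC (-7.19 points) was -4.69 with the stricter gate, -7.32 with doublets removed, -3.77 thinned, -3.61 with the wider gate, -4.18 with mixed barcodes removed, -3.71 in protocol A and -10.7 in protocol B, none of which passed, and -13.6 to -0.787 without 1 library. Progression against onset in shares turned to -0.273 when thinned and was 0.973 to 3.43 without 1 library. Directions turned for Gzma per day (-0.064 with doublets removed, -0.0519 with mixed barcodes removed, -0.179 in DDC libraries alone without mixed barcodes), for progression against onset in C1qa (0.0575 with doublets removed, 0.298 with the wider gate, 0.722 with the wider gate without mixed barcodes), Lyz2 (0.107, the last setting) and C1qb (0.558 and 0.232, the last 2 settings), and against the cDC1 gate in Wfdc18 (-5.43 to 3.62 without 1 library, turned without D5 B, 4.62 with mixed barcodes removed), Tgfbi (6.17 with doublets removed, 5.90 with mixed barcodes removed), Cxcl1 (-6.71 to 4.85 without 1 library, turned without D5 B) and Pf4 (4.64 with mixed barcodes removed). C1qa against the Cd209a gate was 0.357 with doublets removed. The causes were not tested. Of 279 values of single genes per day, 192 kept their direction and call, 84 lost the call and 3 turned. All libraries of that fit are of protocol B, so dropping the protocol term or keeping protocol B alone repeated it. Part of the 192 was thus fixed in advance. The DDC libraries alone and the fit without D0 B are also the same fit, counted as separate values. Of 122 values for progression against onset, 86 kept their direction and their state of call, 26 lost the call, 6 turned and 4 gained it. Nr4a1 and Il12a, not called in the main fit, gave 15 and 17 of the 86 by staying uncalled. With 32 to 284 members per library, genes under about 10 CPM rest on a few UMIs.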
